A study of Mus musculus with 18 samples.

Results

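The genes described here are 32 genes of glucose breakdown and of the transcriptional response to low oxygen, followed in the urinary bladder of mice after cyclophosphamide. They were taken by name from the deposited gene table, which holds 60750 rows, 46333 of them with a gene name. All 32 passed the filter on low counts, as did 19323 genes in all. The list names no measured threshold, but it was chosen with earlier results on the expression of these genes in the same libraries known, and no record says which values were used. The genes count as selected on their changes in every comparison below, so counts over the list are descriptions, and the background shares are given beside them without reading anything from the difference. The animals were wild type female BALB/c mice aged 8 weeks, and each group held 3 of them. The 6 groups were CP 1 d VitA and CP 1 d normal (bladders taken 1 day after an intraperitoneal injection of 150 mg/kg cyclophosphamide, CP), CP 3 d VitA and CP 3 d normal (taken at 3 days), and saline VitA and saline normal (taken 1 day after saline). VitA stands for a vitamin A-enriched diet and normal for the usual one. The enriched diet was given from 1 week before the injection. The labels put it at 566081 UI retinyl acetate per kg, but the series text speaks of retinyl palmitate, 36 times the normal content. Saline bladders came from day 1 alone, so a comparison of 3 days of CP with saline mixes treatment and time after injection. The question was how a vitamin A-rich diet bears on regrowth of the bladder lining after cyclophosphamide, a drug whose breakdown products reach the urine and injure the urothelium.

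Glycolysis turns glucose into pyruvate in the cytosol. Glucose enters through carriers such as the product of Slc2a1, is trapped by hexokinases, split into triose phosphates and oxidised to pyruvate, which lactate dehydrogenase can reduce to lactate for export. When oxygen is short, prolyl hydroxylases stop marking the alpha subunits of hypoxia-inducible factor for destruction. The stabilised factor pairs with its beta subunit on DNA and raises many glycolytic genes together with targets such as Hilpda, Egln3 and Ndrg1. The alpha subunit is mainly controlled at the protein level, so its messenger RNA level is not a readout of its activity.

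Total RNA of whole bladders was sequenced, with 19554132 to 34598952 counts per library. Levels are given as counts per 1000000 (CPM) of the library after scaling, changes as log2 ratios from a model over all 18 libraries, and p-values as edgeR quasi-likelihood values adjusted over all 19323 genes by Benjamini-Hochberg, with 0.05 as the threshold. In whole tissue, fewer cells of a type and less RNA per cell cannot be told apart. The labels call the replicates biological and say that mice were caged in groups of 3, without naming cages, so cage and group may coincide. Markers of urothelium and smooth muscle were abundant in every library, at summed levels of 7120 to 12373 CPM for 10 urothelial markers and 10165 to 34624 CPM for 10 smooth muscle markers. Replicate 2 of CP 3 d VitA carried the largest share of counts in genes shorter than 1 kb, 14.5%, against 7.38% in the library with the smallest share. Counts of called members that use that library are given with and without it, while other values are given with it.

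The members spanned a wide range of levels. Per length of gene, the most abundant in saline normal bladders were Ldhb at 402 ± 12.4, Aldoa at 361 ± 42.2 and Pkm at 166 ± 4.80 FPKM (deposited fragments per kilobase of gene and 1000000 mapped, SD, n = 3), and the least abundant was Car9 at 0.511 ± 0.435 FPKM. The highest group mean of FPKM fell in CP 1 d VitA for 20 of the 32 genes, in saline VitA for 5 and in saline normal for 4, with 1 gene in each of the other groups.

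One day after cyclophosphamide, Pgk1, Eno1, Pkm and Ldha of the lower glycolytic pathway, Hif1a and Hilpda were higher than after saline on both diets. The carrier genes Slc2a1 and Slc16a3 rose on the vitamin A diet, where 2 of 3 carriers passed, while 0 of 3 passed on the normal diet. CP 1 d VitA against saline VitA gave 14 members higher and 3 lower, 53.1% of the 32, while 19.3% of all genes tested passed in that comparison (10.2% higher and 9.05% lower). CP 1 d normal against saline normal gave 7 higher and 2 lower, 28.1% of the 32, against a background of 11.8% of all genes (7.26% higher and 4.49% lower). The median log2 change of the 32 was 0.52 on the vitamin A diet and 0.20 on the normal diet, while the median over all genes was -0.0125 and -0.000652. Pgk1, Eno1, Pkm, Ldha, Hif1a and Hilpda were called higher on both diets, 42.9% of the 14 and 85.7% of the 7, and Pfkfb4 was called lower on both. These 2 comparisons share no library. The share of all genes called on both diets was not counted, so nothing is read from this overlap. Slc2a1, Slc16a3, Hk1, Pfkl, Aldoa, Tpi1, Pgam1 and Egln3 were called higher on the vitamin A diet and not on the normal diet, and the test of that difference between diets is given further on.

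**Figure D1:**
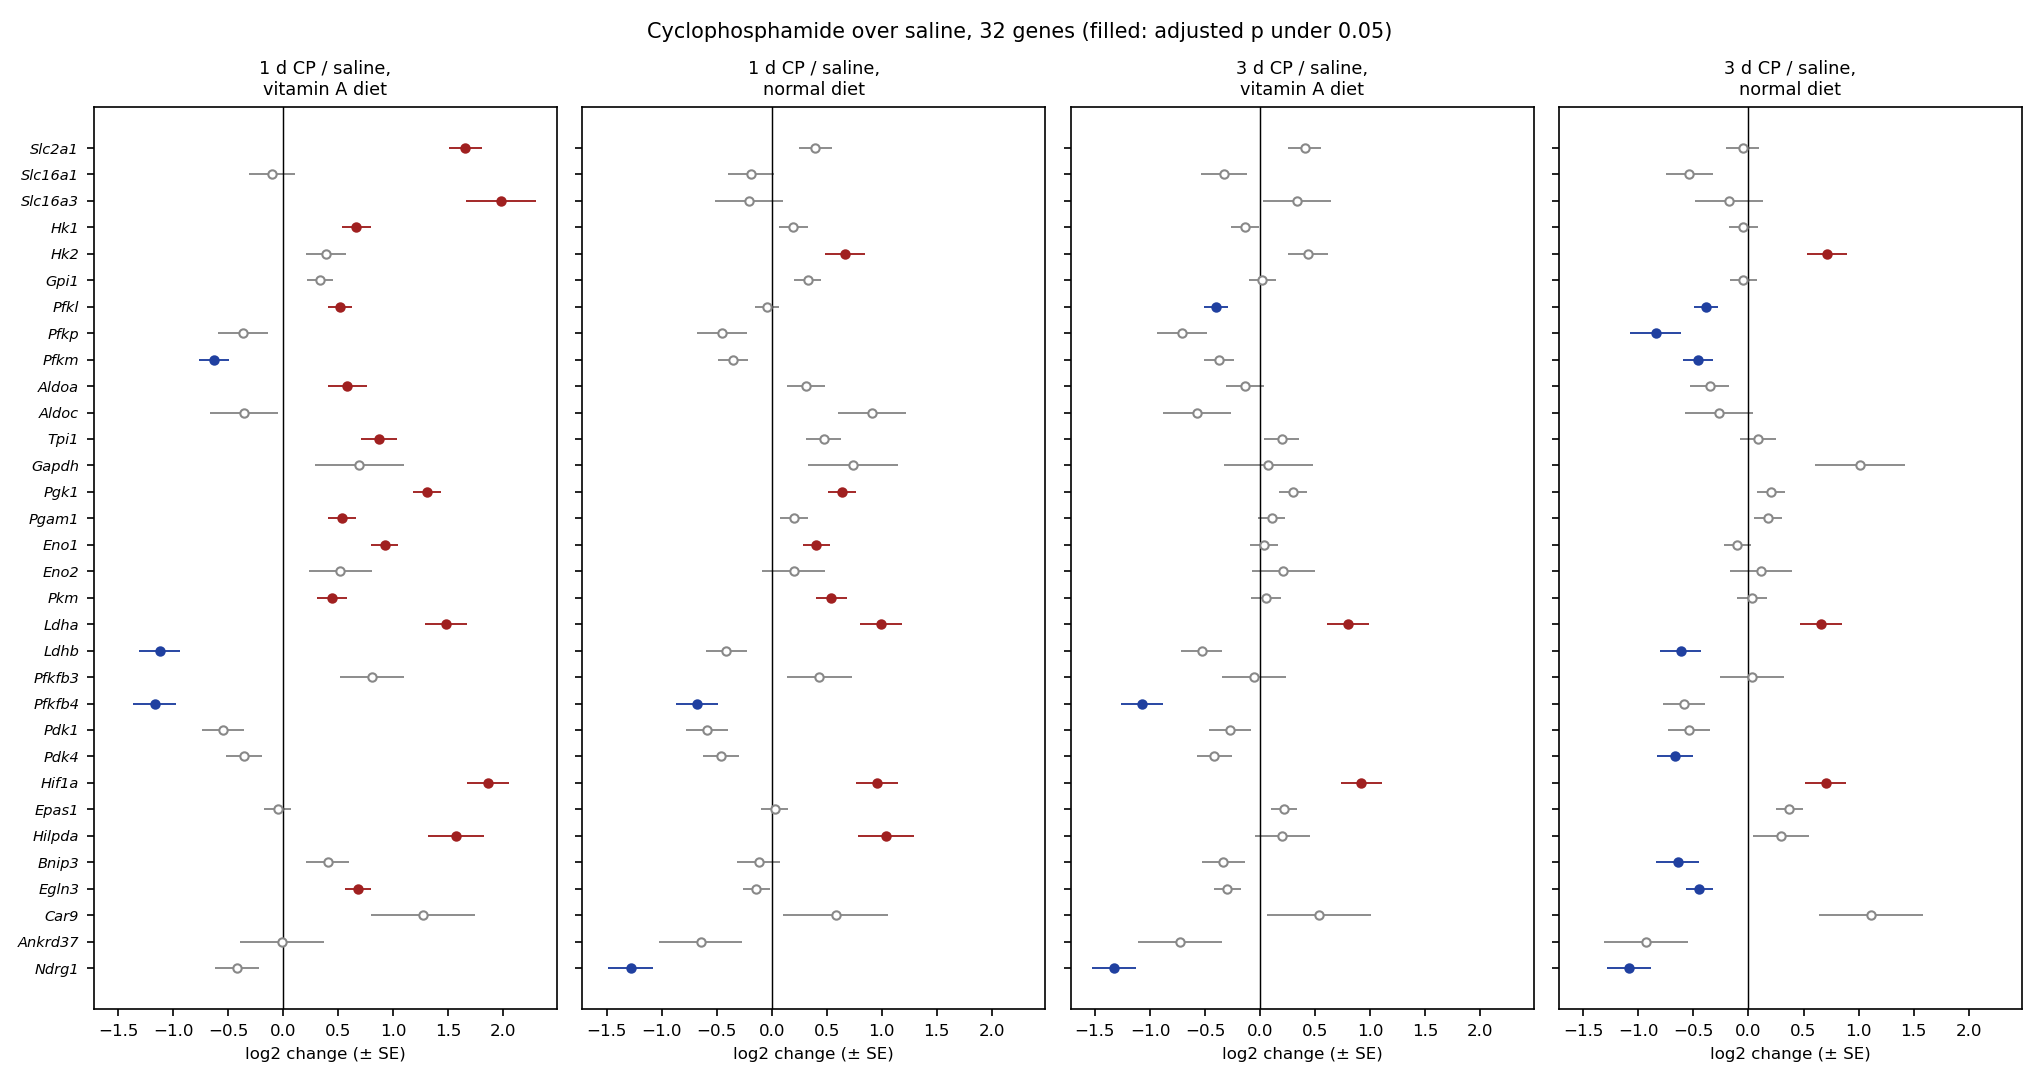
Log2 change of the 32 genes after cyclophosphamide over saline, at 1 and 3 days and on each diet, as points with SE. Filled points passed an edgeR adjusted p of 0.05. At 1 day on the vitamin A diet, 14 points are filled to the right of 0 and 3 to the left, against 7 and 2 on the normal diet.

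Marker genes of cell types and of cell division also moved in these comparisons. Summed fibroblast markers were at 1599 to 3561 CPM in CP 1 d VitA and 2136 to 3210 CPM in CP 1 d normal, against 6702 to 7840 CPM in saline VitA and 6397 to 7292 CPM in saline normal. Summed cell division markers were at 466 to 771 CPM in CP 1 d VitA and 227 to 449 CPM in CP 1 d normal, against 63.4 to 76.4 and 60.6 to 66.1 CPM in the saline groups of the same diets. All 8 cell division markers passed as higher on both diets, and 8 of 8 fibroblast markers were lower on the vitamin A diet and 6 of 8 on the normal diet. Urothelial markers summed to 8204 to 12174 CPM in CP 1 d VitA and 10422 to 12373 CPM in CP 1 d normal, ranges that overlap those after saline, but single markers moved. On the vitamin A diet 6 of 10 were lower and 2 higher (median log2 -0.67), and on the normal diet 2 were lower and 1 higher (median -0.33). Smooth muscle markers summed to 12966 to 23853 CPM in CP 1 d VitA against 22530 to 34624 CPM in saline VitA, and to 12668 to 21603 CPM in CP 1 d normal against 25838 to 33433 CPM in saline normal, with 2 of 10 lower on each diet. Neutrophil markers summed to 19.7 to 44.5 CPM in CP 1 d VitA and 10.98 to 24.7 CPM in CP 1 d normal, against 20.6 to 23.7 CPM in saline VitA and 25.5 to 31.2 CPM in saline normal. Of the 6 neutrophil markers tested, 3 were higher on the vitamin A diet (median log2 4.17), and 1 was higher and 1 lower on the normal diet (median 1.85), while Camp was at 0 in every library of these 4 groups. Red blood cell markers were lower for 4 of 7 tested on the vitamin A diet and 3 of 7 on the normal diet. The part of these markers in the changes of the glycolytic genes, muscle-type Pfkm included, was not tested.

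Slc2a1 encodes GLUT1, the basal glucose carrier, and was the member with the smallest p at 1 day. Slc2a1 on the vitamin A diet had 44.8, 40.6 and 40.4 CPM after saline, 96.1, 152 and 148 CPM at 1 day of CP and 50.7, 55.7 and 60.3 CPM at 3 days. Slc2a1 on the normal diet had 52.1, 46.3 and 51.9 CPM after saline, 60.1, 65.9 and 71.8 CPM at 1 day and 54.4, 44.5 and 46.0 CPM at 3 days. All 3 CP 1 d VitA libraries lay above the other 15. CP 1 d VitA averaged 132 ± 31.1 against 41.9 ± 2.51 CPM in saline VitA (SD, n = 3 each), a log2 change of 1.65 (SE 0.15, edgeR adjusted p = 1.18e-06). On the normal diet the log2 change was 0.40 (adjusted p = 0.0964). CP 1 d VitA also exceeded CP 1 d normal by 1.00 on the log2 scale (SE 0.15, adjusted p = 0.0137), and CP 3 d VitA was lower than CP 1 d VitA (log2 -1.25, adjusted p = 0.000222).

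Slc16a3 encodes MCT4, a carrier that exports lactate from glycolytic cells. Slc16a3 on the vitamin A diet had 10.1, 7.71 and 12.8 CPM after saline, 23.6, 48.1 and 48.7 CPM at 1 day and 14.7, 14.1 and 9.73 CPM at 3 days. Slc16a3 on the normal diet had 7.98, 16.1 and 11.6 CPM, then 7.47, 11.6 and 11.8 CPM, then 7.65, 13.3 and 10.6 CPM at the same stages. The gene was thus high in a single group, and the normal-diet groups overlapped one another. Its log2 change was 1.98 in CP 1 d VitA over saline VitA (SE 0.32, adjusted p = 0.000202) and 1.96 in CP 1 d VitA over CP 1 d normal (SE 0.32, adjusted p = 0.0137). Slc16a3 overlaps Csnk1d on the opposite strand by 1292 bases, and whether the counting used strand is not given in the sources used here. Csnk1d had log2 changes of 0.14 in CP 1 d VitA over saline VitA and 0.03 in CP 1 d VitA over CP 1 d normal. Slc16a1, which encodes the related carrier MCT1, stayed between 26.9 and 57.7 CPM in all 18 libraries, and no comparison called it. Of the summed FPKM of both carriers, Slc16a3 made up 51.5 ± 16.3% in CP 1 d VitA, 23.6 ± 0.662% in CP 1 d normal and 20.1 ± 4.68% in saline VitA.

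Of the 9 genes for the upper steps, 4 rose and 1 fell in CP 1 d VitA over saline VitA. Hexokinase gene Hk1 had 207, 215 and 206 CPM in CP 1 d VitA against 141, 127 and 129 CPM in saline VitA (log2 0.66, edgeR adjusted p = 0.00143). Pfkl, the liver-type phosphofructokinase gene, had 144, 166 and 145 CPM in CP 1 d VitA against 109, 99.1 and 110.4 CPM in saline VitA, a log2 change of 0.52 (SE 0.11, adjusted p = 0.0023). Its muscle-type relative Pfkm went the other way, with 59.3, 47.8 and 49.96 CPM against 89.4, 76.5 and 77.1 CPM (log2 -0.63, adjusted p = 0.00325). The groups did not overlap for any of these genes. The share of Pfkl in the summed FPKM of Pfkl, Pfkm and Pfkp was 58.3 ± 5.54% in CP 1 d VitA, 44.9 ± 1.10% in CP 1 d normal and 40.5 ± 1.98% in saline VitA. Hk1 overlaps the antisense transcript Hk1os, which held 1029 counts against 66734 for Hk1. Pfkm overlaps Senp1 on the other strand by 1156 bases, and Senp1 was at a log2 change of 0.38 (adjusted p = 0.103). With edgeR, Pfkp, the platelet type, passed in CP 3 d normal over saline normal alone, where it fell by 0.84 on the log2 scale (adjusted p = 0.024).

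Tpi1, the triose phosphate isomerase gene, rose to 432 ± 72.2 CPM in CP 1 d VitA against 237 ± 18.1 CPM in saline VitA (log2 0.87, adjusted p = 0.000892). Aldoa, the main aldolase gene of the bladder, rose to 1359 ± 209 against 907 ± 117 CPM (log2 0.58, adjusted p = 0.024). The Aldoa call was lost without saline VitA replicate 2 or 3 or CP 1 d VitA replicate 2 or 3, with adjusted p up to 0.107. Hk2, the inducible hexokinase, passed on the normal diet and not on the vitamin A diet. It had 19.8, 23.8 and 18.6 CPM in CP 1 d normal against 12.96, 12.96 and 13.3 CPM in saline normal (log2 0.67, adjusted p = 0.0239). That call was lost without saline normal replicate 1, 2 or 3 or CP 1 d normal replicate 2, with adjusted p up to 0.111. On the vitamin A diet Hk2 was already at 23.2, 19.5 and 27.2 CPM after saline, above every saline normal library, and at 30.0, 30.0 and 31.5 CPM in CP 1 d VitA (log2 0.39, adjusted p = 0.144). Gpi1 had a log2 change of 0.33 on both diets at 1 day, with adjusted p of 0.0603 on the vitamin A and 0.0871 on the normal diet. Aldoc, a minor aldolase gene, lay between 2.39 and 10.4 CPM and passed in no comparison with edgeR. DESeq2 called Aldoc higher in CP 1 d normal than in saline normal (adjusted p = 0.0316). It called Aldoc lower in CP 3 d normal (adjusted p = 0.00881) and in CP 1 d VitA (adjusted p = 0.0244) than in CP 1 d normal.

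The lower steps moved most widely, with 5 of 8 genes higher and 1 lower in CP 1 d VitA and 4 higher in CP 1 d normal. Pgk1, the phosphoglycerate kinase gene, makes the first ATP of the pathway. Pgk1 on the vitamin A diet had 123, 112 and 111 CPM after saline, 235, 317 and 304 CPM at 1 day and 125, 158 and 143 CPM at 3 days. Pgk1 on the normal diet had 104, 115 and 105 CPM after saline, 157, 169.9 and 176 CPM at 1 day and 137, 118 and 118 CPM at 3 days. CP 1 d libraries lay above saline libraries on both diets, and CP 1 d VitA above CP 1 d normal. Its log2 change at 1 day was 1.30 on the vitamin A diet (SE 0.13, adjusted p = 2.08e-06) and 0.63 on the normal diet (SE 0.13, adjusted p = 0.00289). CP 1 d VitA exceeded CP 1 d normal by 0.77 (adjusted p = 0.0147).

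Eno1, the main enolase gene, had 354, 439 and 425 CPM in CP 1 d VitA and 251, 307 and 281 CPM in CP 1 d normal, against 236, 203 and 205 CPM in saline VitA and 203, 239 and 191 CPM in saline normal. Its log2 change was 0.92 (adjusted p = 4.36e-05) on the vitamin A diet and 0.41 (adjusted p = 0.0407) on the normal diet. The normal-diet call was lost without saline normal replicate 1 or 3 or CP 1 d normal replicate 2 or 3, with adjusted p up to 0.184. Rows with the same annotated protein, mainly Eno1b, hold 39.7% of the counts of all Eno1 rows, and with them added the changes were 0.91 and 0.42. Pkm, the pyruvate kinase gene of most tissues, had 1746, 2123 and 1809 CPM in CP 1 d VitA against 1461, 1313 and 1399 CPM in saline VitA, and 1931, 1802 and 1909.9 CPM in CP 1 d normal against 1258, 1286 and 1329 CPM in saline normal. Its log2 changes of 0.44 (adjusted p = 0.0289) and 0.54 (adjusted p = 0.0148) were among the smallest that passed. The vitamin A call was lost without saline VitA replicate 1, 2 or 3 or CP 1 d VitA replicate 2 (adjusted p up to 0.126), and the normal-diet call without saline normal replicate 1 or 2 or CP 1 d normal replicate 3 (adjusted p up to 0.0639). Pgam1, a phosphoglycerate mutase gene, rose on the vitamin A diet (log2 0.54, adjusted p = 0.00534), and the neuronal-type enolase gene Eno2 passed in no comparison.

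Ldha and Ldhb encode the subunits of lactate dehydrogenase, the first favouring lactate formation and the second its use. Ldha on the vitamin A diet had 335, 283 and 290.1 CPM after saline, 631, 1039 and 862 CPM at 1 day and 390.3, 641 and 546 CPM at 3 days. Ldha on the normal diet had 245, 295 and 250.2 CPM, then 453, 528 and 590.0 CPM, then 449, 389.9 and 407 CPM. No CP library overlapped the saline libraries of its diet. Ldhb on the vitamin A diet had 560.4, 519 and 624 CPM after saline, 299, 293 and 189.8 CPM at 1 day and 308, 529 and 341 CPM at 3 days. Ldhb on the normal diet had 525, 549.8 and 514 CPM, then 420.2, 412 and 361 CPM, then 361, 336 and 339 CPM.

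On the vitamin A diet the 2 subunit genes moved in opposite directions. Ldha rose at 1 day by 1.48 on the vitamin A diet (SE 0.19, adjusted p = 2.54e-05) and by 0.99 on the normal diet (SE 0.19, adjusted p = 0.00199). Ldhb fell by 1.12 on the vitamin A diet (SE 0.19, adjusted p = 0.000336) and had a log2 change of -0.41 on the normal diet (adjusted p = 0.167). The share of Ldha in the summed FPKM of both was 44.3 ± 9.48% in CP 1 d VitA, 24.4 ± 3.87% in CP 1 d normal, 24.8 ± 2.84% in CP 3 d VitA and 22.7 ± 0.607% in CP 3 d normal, against 11.6 ± 1.27% in saline VitA and 10.8 ± 0.700% in saline normal. These shares rest on annotated lengths of 5342 bases for Ldha and 1304 for Ldhb, which cancel between groups only as far as the same transcripts are used. Diet differences at 1 day were 0.69 for Ldha (adjusted p = 0.121) and -0.61 for Ldhb (adjusted p = 0.166).

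**Figure D2:**
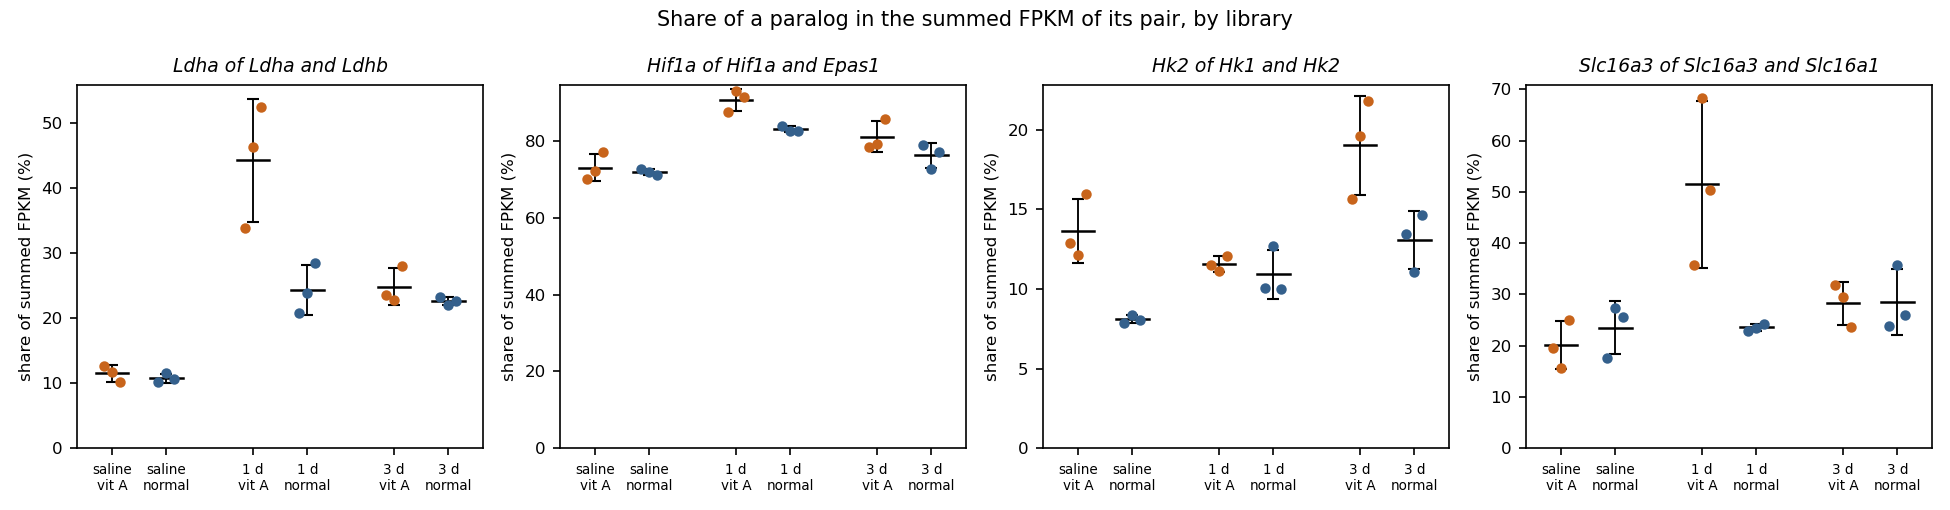
Share of one paralog in the summed FPKM of its pair (%), by library; dots are libraries, lines group means and bars SD, orange the vitamin A and blue the normal diet. Ldha takes 34.0 to 52.6% in the CP 1 d VitA libraries and 20.8 to 28.5% in CP 1 d normal, against 10.2 to 12.7% in saline VitA and 10.2 to 11.6% in saline normal.

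Gapdh could not be read from its own row. That row held 11924 counts over all libraries, while 102 other rows annotated with the same protein held 126772 counts, 91.4% of the sum, most of them in the processed pseudogene Gm13394 with 119538. Its row gave 28.9, 44.3 and 37.7 CPM in CP 1 d VitA against 17.5, 36.2 and 14.998 CPM in saline VitA, which overlap (log2 0.69, adjusted p = 0.258). With the 102 rows added, a setting chosen after seeing the data, CP 1 d VitA had 438, 457 and 447 CPM against 254, 257 and 243 CPM in saline VitA. The summed rows rose by 0.83 on the vitamin A diet (adjusted p = 7.34e-05) and by 0.42 on the normal diet (adjusted p = 0.029).

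With edgeR, regulators of the flux fell or did not pass at 1 day. Pfkfb4, one of the enzymes that set the level of the sugar phosphate activating phosphofructokinase, fell in CP on both diets. It had 17.7, 14.6 and 12.4 CPM in CP 1 d VitA and 18.7, 16.5 and 17.2 CPM in CP 1 d normal, against 25.0, 34.6 and 40.9 CPM in saline VitA and 26.5, 25.7 and 31.6 CPM in saline normal. The log2 changes were -1.17 (adjusted p = 0.000291) and -0.68 (adjusted p = 0.0275), and the second was lost without saline normal replicate 1 or 3 or any 1 of the CP 1 d normal libraries, with adjusted p up to 0.128. Pfkfb3, its relative, spread widely in CP 1 d VitA at 42.3, 21.9 and 68.5 CPM against 21.4, 29.3 and 25.2 CPM in saline VitA (log2 0.81, adjusted p = 0.0607). Pdk1 and Pdk4, whose kinases hold back pyruvate dehydrogenase, had log2 changes of -0.54 and -0.35 on the vitamin A diet. On the normal diet these were -0.59 and -0.46, and none of the 4 passed with edgeR. DESeq2 called Pdk1 lower on the vitamin A (adjusted p = 0.0363) and the normal diet (adjusted p = 0.0221). It called Pdk4 lower on the normal diet (adjusted p = 0.0477) and Pfkfb3 higher on the vitamin A diet (adjusted p = 0.0337).

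Hif1a encodes the oxygen-labile alpha subunit of hypoxia-inducible factor, and its transcript was among the most changed. Hif1a on the vitamin A diet had 157, 164 and 172 CPM after saline, 403, 737 and 651 CPM at 1 day and 297, 251 and 384 CPM at 3 days. Hif1a on the normal diet had 166, 156 and 143 CPM after saline, 315, 288 and 300.3 CPM at 1 day and 290.3, 226 and 242 CPM at 3 days. Every CP library lay above every saline library, and the CP 1 d VitA libraries above all others. The log2 change at 1 day was 1.86 (SE 0.19, adjusted p = 3.03e-06) on the vitamin A diet and 0.96 (SE 0.19, adjusted p = 0.00245) on the normal diet. Epas1, which encodes the related alpha subunit, stayed between 56.1 and 93.0 CPM in all 18 libraries and passed in no comparison with edgeR. DESeq2 called Epas1 higher in CP 3 d normal than in saline normal (log2 0.36, adjusted p = 0.0410). Of the summed FPKM of Hif1a and Epas1, Hif1a held 90.5 ± 2.88% in CP 1 d VitA and 83.0 ± 0.743% in CP 1 d normal, against 73.0 ± 3.62% in saline VitA and 71.9 ± 0.819% in saline normal.

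**Figure D3:**
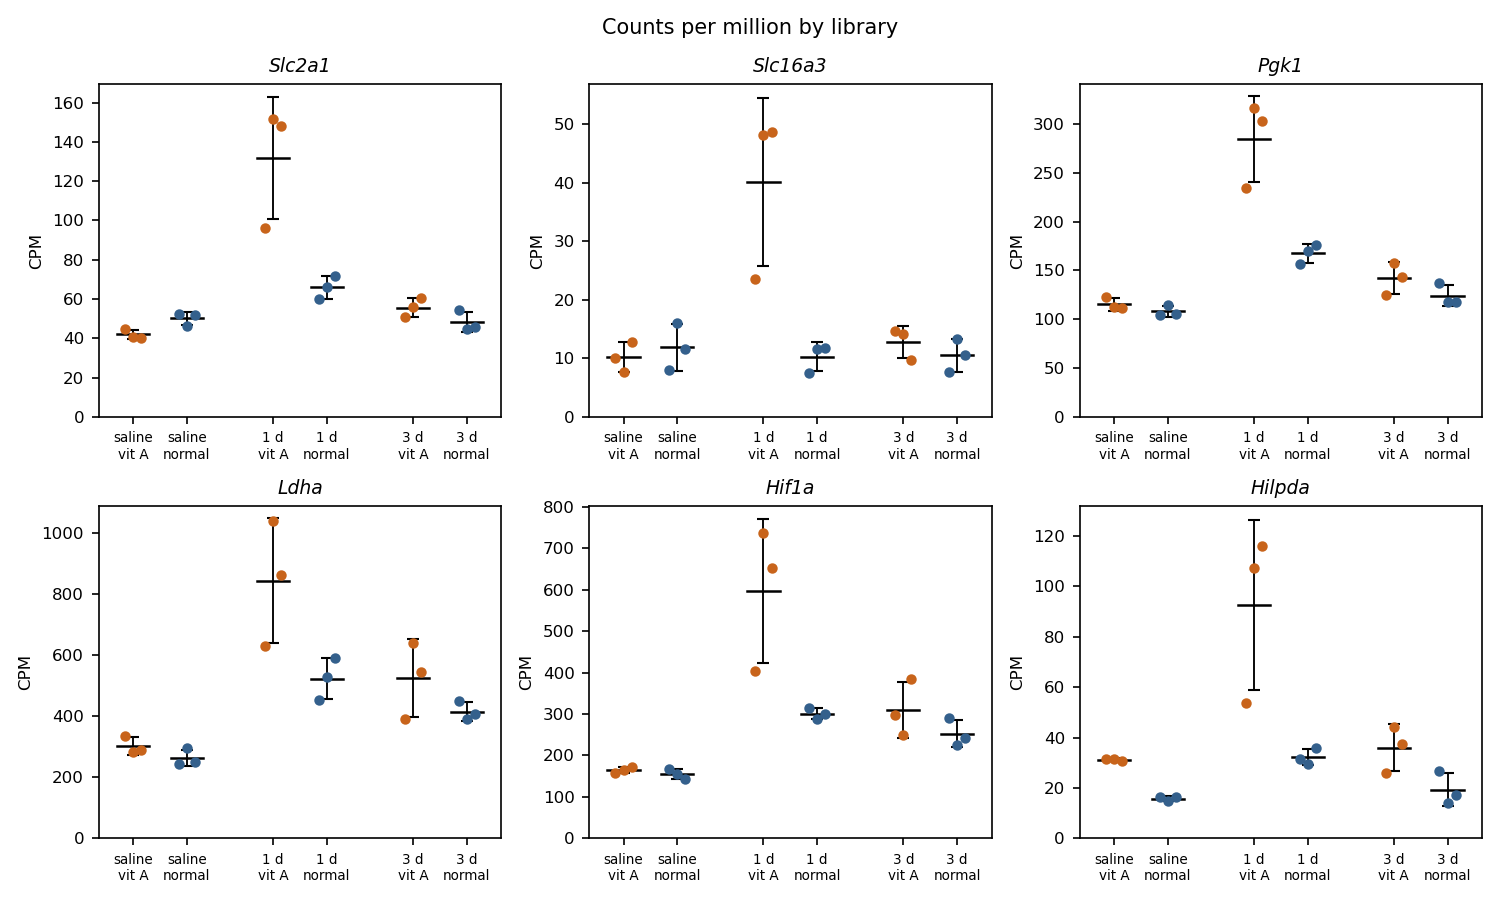
CPM by library for Slc2a1, Slc16a3, Pgk1, Ldha, Hif1a and Hilpda in the 6 groups; dots are libraries, lines means and bars SD, orange the vitamin A and blue the normal diet. The CP 1 d VitA group has the highest mean in each panel, for Slc16a3 at 40.2 CPM against 10.3 CPM in CP 1 d normal.

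Targets of the hypoxia response did not move as 1 block. Hilpda, which encodes a lipid droplet protein that slows fat breakdown, had 53.8, 108 and 116 CPM in CP 1 d VitA and 31.3, 29.5 and 36.0 CPM in CP 1 d normal, against 31.6, 31.4 and 30.6 CPM in saline VitA and 16.3, 14.7 and 16.2 CPM in saline normal. It rose on both diets, by 1.57 on the vitamin A diet (SE 0.26, adjusted p = 0.000252) and by 1.04 on the normal diet (SE 0.26, adjusted p = 0.0129). The normal-diet call was lost without saline normal replicate 2 or CP 1 d normal replicate 3, with adjusted p up to 0.0555. Egln3, the gene of a prolyl hydroxylase that marks the alpha subunits, had 75.7, 92.0 and 86.7 CPM in CP 1 d VitA against 54.3, 49.0 and 55.9 CPM in saline VitA (log2 0.68, adjusted p = 0.000608). In CP 1 d normal it had 50.003, 57.1 and 50.8 CPM against 57.1, 66.3 and 50.4 CPM in saline normal, which overlap.

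Ndrg1, a stress gene raised by low oxygen in cultured human cells, fell. Ndrg1 on the vitamin A diet had 156, 164 and 139.7 CPM after saline, 145, 104 and 94.0 CPM at 1 day and 75.2, 63.5 and 44.9 CPM at 3 days. Ndrg1 on the normal diet had 139.7, 140.5 and 157 CPM after saline, 62.2, 75.9 and 42.0 CPM at 1 day and 67.7, 66.9 and 71.7 CPM at 3 days. It was the member with the smallest p on the normal diet at 1 day, where it fell by 1.28 (SE 0.20, adjusted p = 0.000409), and had a log2 change of -0.42 on the vitamin A diet (adjusted p = 0.154). Bnip3, which serves the removal of mitochondria, did not pass with edgeR at 1 day on either diet. Neither did Car9, a carbonic anhydrase gene with 0.363 to 3.21 CPM, or Ankrd37 with 1.13 to 4.81 CPM. DESeq2 called Car9 higher in CP 1 d VitA than in saline VitA (log2 1.28, adjusted p = 0.0286). Car9 overlaps Arhgef39 on the opposite strand by 1722 bases, and Arhgef39 itself rose by 2.02 in CP 1 d VitA over saline VitA (adjusted p = 0.000882).

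**Figure D4:**
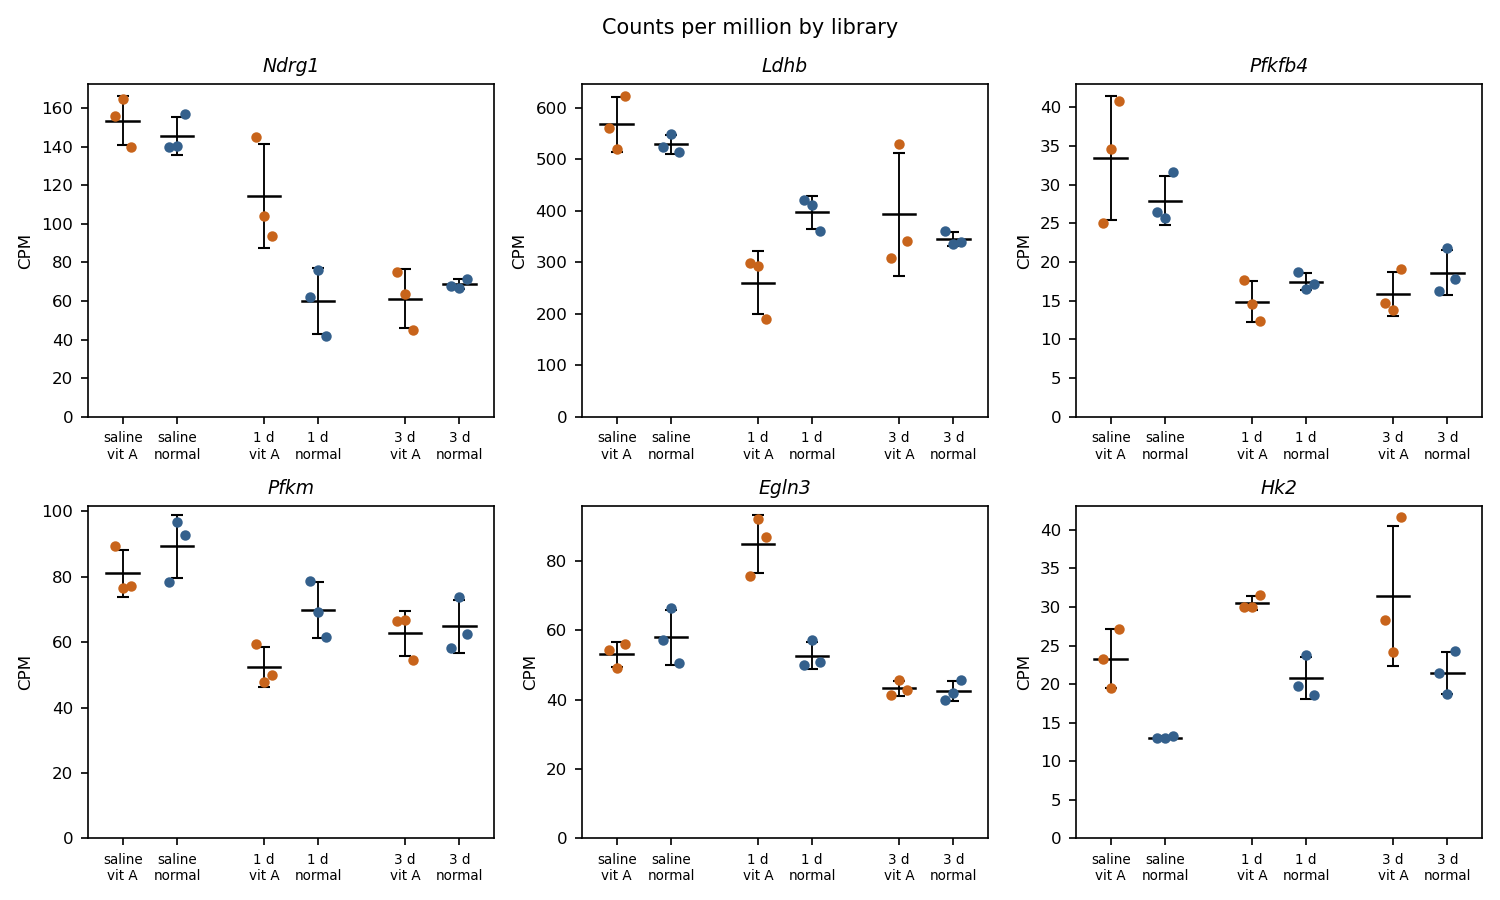
CPM by library for Ndrg1, Ldhb, Pfkfb4, Pfkm, Egln3 and Hk2 in the 6 groups; dots are libraries, lines means and bars SD, orange the vitamin A and blue the normal diet. Ndrg1 stands at 94.0 to 145 CPM in CP 1 d VitA and 42.0 to 75.9 CPM in CP 1 d normal, against 139.7 to 164 CPM in the saline libraries.

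Hypoxia-inducible factor binds the core letters ACGTG and GCGTG, and the bases before the start sites of the members were searched for them. RefSeq promoter entries of the build GRCm38.p6, 250 bases upstream of a start, were found for 30 of the 32 genes, in 44 windows. They are C57BL/6J reference bases, and the counts rest on GRCm39. On either strand, 27 of the 30 genes (90.0%) held ACGTG or GCGTG in at least 1 window, against 11226 of 27025 genes (41.5%) with an entry. The members' windows were also richer in G and C, with a median of 60.0% against 52.4%, and more numerous per gene, with 44 windows for 30 genes against 32851 for 27025. A match is a description of letters and no shown site. The windows of Slc16a3, Pgk1, Ldha and Hif1a are printed because these genes rose, and that of Ldhb because it fell, with matches on either strand in capitals, read 5′ to 3′ on the gene's strand. The palindrome CACGTG counts once on each strand. Windows not printed held 5 matches for Bnip3 and 4 each for Ankrd37 and Slc16a1, genes not called at 1 day over saline. That of Tpi1, which rose on the vitamin A diet, held 0. Of the 14 members higher in CP 1 d VitA over saline VitA, 13 (92.9%) held either motif, near the 90.0% of all members with an entry. The first bases of an annotated transcript (GENCODE) of the gene were found in 39 of the 44 entries. They were not found in the entries printed for Ldha and Hif1a. Annotated exons (GENCODE) covered part of some windows, and all 250 bases of a window of Eno1 and of a window of Pdk1. They covered 14 bases of the window printed for Slc16a3 and 0 of those printed for Pgk1, Ldha, Hif1a and Ldhb. The windows hold 2 matches for Slc16a3 (chr11:120948817-120949066, plus strand), 2 for Pgk1 (chrX:106186850-106187099, plus strand), 5 for Ldha (chr7:46845554-46845803, plus strand; its other window, chr7:46846832-46847081, holds 1 and is not printed), 3 for Hif1a (chr12:73907617-73907866, plus strand) and 1 for Ldhb (chr6:142507958-142508207, minus strand).
Slc16a3: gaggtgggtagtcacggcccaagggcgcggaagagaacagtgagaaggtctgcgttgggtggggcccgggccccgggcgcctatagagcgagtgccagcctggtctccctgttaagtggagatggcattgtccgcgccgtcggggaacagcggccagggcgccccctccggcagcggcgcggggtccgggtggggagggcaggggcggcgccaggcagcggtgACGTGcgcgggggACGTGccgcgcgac
Pgk1: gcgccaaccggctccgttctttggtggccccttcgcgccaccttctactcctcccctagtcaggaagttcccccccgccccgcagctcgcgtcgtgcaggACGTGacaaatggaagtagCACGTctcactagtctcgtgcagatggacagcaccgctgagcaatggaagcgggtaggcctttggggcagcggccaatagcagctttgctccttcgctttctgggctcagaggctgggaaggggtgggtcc
Ldha: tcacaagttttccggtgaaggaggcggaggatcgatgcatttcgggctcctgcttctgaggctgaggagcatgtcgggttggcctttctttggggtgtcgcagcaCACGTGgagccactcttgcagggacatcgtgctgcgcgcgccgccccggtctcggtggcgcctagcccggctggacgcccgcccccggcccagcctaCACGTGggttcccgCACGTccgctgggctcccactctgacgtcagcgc
Hif1a: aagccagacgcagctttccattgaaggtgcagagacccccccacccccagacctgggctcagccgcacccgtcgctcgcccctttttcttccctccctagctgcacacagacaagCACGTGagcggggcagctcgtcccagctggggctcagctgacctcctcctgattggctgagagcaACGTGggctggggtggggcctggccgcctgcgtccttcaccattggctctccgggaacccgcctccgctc
Ldhb: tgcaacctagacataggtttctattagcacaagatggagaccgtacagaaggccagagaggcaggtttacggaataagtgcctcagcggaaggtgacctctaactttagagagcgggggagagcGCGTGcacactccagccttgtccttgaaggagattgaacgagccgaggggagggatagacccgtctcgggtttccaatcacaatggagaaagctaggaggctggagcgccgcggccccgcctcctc

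On the vitamin A diet, carriers Slc2a1 and Slc16a3, several glycolytic enzymes and Hif1a were lower at 3 days than at 1 day. This comparison and that of CP 1 d VitA with saline VitA share the CP 1 d VitA libraries, so their values are given side by side and nothing is read from the overlap of their calls. CP 3 d VitA against CP 1 d VitA gave 14 members lower and none higher, 43.8% of the 32, against a background of 4.24% of all genes (2.55% higher and 1.69% lower). They were Slc2a1, Slc16a3, Hk1, Pfkl, Aldoa, Tpi1, Pgk1, Eno1, Ldha, Hif1a, Hilpda, Bnip3, Egln3 and Ndrg1, and 15 were lower without replicate 2 of CP 3 d VitA. Pfkl had 73.6, 82.9 and 84.8 CPM in CP 3 d VitA against 144, 166 and 145 CPM in CP 1 d VitA (log2 -0.92, SE 0.11, adjusted p = 0.000185). Egln3 had 41.2, 45.6 and 42.8 CPM against 75.7, 92.0 and 86.7 CPM (log2 -0.97, adjusted p = 0.000289). Pgk1 fell by 1.00 (adjusted p = 0.000325) and Eno1 by 0.88 (adjusted p = 0.000786). The ranges of Ldha overlapped. Over all 32, 2 were higher and 17 lower without overlap, against 7.81% and 7.85% of all genes. The Aldoa, Tpi1, Ldha and Bnip3 calls were lost without CP 1 d VitA replicate 2 or 3 or CP 3 d VitA replicate 1, and those of Aldoa, Ldha and Bnip3 also without CP 3 d VitA replicate 3, with adjusted p up to 0.18. The Ndrg1 call was lost without CP 1 d VitA replicate 1 (adjusted p = 0.0518). When only the libraries of these 2 groups were fitted, 17 genes passed in all and none of the 32, with adjusted p of 0.0884 for Slc2a1 and 0.0995 for Pfkl. Summed fibroblast markers were at 6008 to 12942 CPM in CP 3 d VitA against 1599 to 3561 CPM in CP 1 d VitA, with 7 of 8 higher. Macrophage markers were higher for 5 of 9, and red blood cell markers lower for 4 of 7 tested. Lower too were 1 of 6 tested neutrophil markers and 1 of 8 cell division markers. Of 10 urothelial markers 1 was higher and 1 lower. The part of these markers in the differences between the 2 days was not tested.

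On the normal diet CP 3 d against CP 1 d gave 1 member lower, Eno1, against a background of 1.44% (1.22% higher and 0.217% lower). Eno1 had 206, 194 and 189 CPM in CP 3 d normal against 251, 307 and 281 CPM in CP 1 d normal (log2 -0.51, SE 0.12, adjusted p = 0.0485). That call did not survive the removal of any single library of the 6 (adjusted p up to 0.196). The next members were Aldoa at 708, 699 and 661 CPM against 1014, 1115 and 1143 CPM (log2 -0.66, adjusted p = 0.0649), Aldoc at 3.09, 3.35 and 3.48 CPM against 10.4, 3.73 and 8.33 CPM (log2 -1.18, adjusted p = 0.0655) and Pkm at 1380.5, 1197 and 1378 CPM against 1931, 1802 and 1909.9 CPM (log2 -0.51, adjusted p = 0.0719). Their groups did not overlap. DESeq2 called 7 members lower there, among 664 genes in all. The median log2 change of the 32 was -0.30 on the normal diet and -0.68 on the vitamin A diet. Among markers on the normal diet, 4 of 8 fibroblast, 1 of 8 endothelial and 1 of 9 macrophage markers were higher. Red blood cell markers were lower for 4 of 7 tested. Their part in the changes of the members was not tested.

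At 3 days some members still differed from saline, among them Hif1a and Ldha, higher on both diets, and Ndrg1 and Pfkl, lower on both. CP 3 d VitA against saline VitA gave 2 higher and 3 lower, 15.6% of the 32, against a background of 5.98% (4.32% higher and 1.67% lower), with 4 lower without replicate 2 of CP 3 d VitA. CP 3 d normal against saline normal gave 3 higher and 8 lower, 34.4% of the 32, against a background of 10% (6.74% higher and 3.3% lower). Scaling by library total gave 4 higher and 4 lower on the normal diet, among 1971 genes in all. No filter and the replicate block each gave 2 higher and 2 lower on the vitamin A diet, among 1086 and 1050 genes. Hif1a rose by 0.92 (adjusted p = 0.00475) on the vitamin A diet and by 0.70 (adjusted p = 0.0212) on the normal diet, and Ldha by 0.80 (adjusted p = 0.0143) and 0.66 (adjusted p = 0.0319). Ndrg1 fell on both diets, by 1.33 (adjusted p = 0.000348) and 1.08 (adjusted p = 0.00178), and Pfkl by 0.40 (adjusted p = 0.0323) and 0.39 (adjusted p = 0.0276). Pfkfb4 fell on the vitamin A diet to 14.7, 13.7 and 19.1 CPM in CP 3 d VitA against 25.0, 34.6 and 40.9 CPM in saline VitA (log2 -1.08, adjusted p = 0.00154).

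Among edgeR calls made on the normal diet alone, Pdk4 fell to 42.6, 40.1 and 33.2 CPM in CP 3 d normal against 54.6, 61.1 and 68.1 CPM in saline normal (log2 -0.67, adjusted p = 0.0136). Egln3 fell to 39.9, 41.9 and 45.6 CPM against 57.1, 66.3 and 50.4 CPM (log2 -0.45, adjusted p = 0.0238). Hk2 rose to 21.4, 18.8 and 24.2 CPM against 12.96, 12.96 and 13.3 CPM (log2 0.72, adjusted p = 0.0169). Pfkp, Pfkm, Ldhb and Bnip3 were lower as well, with log2 changes of -0.84, -0.46, -0.62 and -0.64. DESeq2 called Pfkp (log2 -0.71, adjusted p = 0.0374) and Ldhb (log2 -0.54, adjusted p = 0.0483) lower on the vitamin A diet too. It also called Pfkfb4 lower on the normal diet (log2 -0.60, adjusted p = 0.0263). Whether the diets differ there was not tested. Of the 11 normal-diet edgeR calls, that of Ndrg1 alone held whichever library was left out. Without saline normal replicate 2 or 3 or CP 3 d normal replicate 1 no member was called higher. On the vitamin A diet the Ldha call was lost without saline VitA replicate 2 or 3 (adjusted p up to 0.0804) and the Pfkl call without saline VitA replicate 1, 2 or 3 or CP 3 d VitA replicate 1 (adjusted p up to 0.112). Cell division markers were higher for 8 of 8 on both diets, with sums of 282 to 550 CPM in CP 3 d VitA and 433 to 589 CPM in CP 3 d normal. Macrophage markers were higher for 5 of 9 on the vitamin A and 7 of 9 on the normal diet, endothelial markers for 2 of 8 and 6 of 8, and urothelial markers were lower for 4 of 10 on both diets. Smooth muscle markers summed to 10165 to 18734 CPM in CP 3 d normal against 25838 to 33433 CPM in saline normal, and to 13980 to 29809 CPM in CP 3 d VitA against 22530 to 34624 CPM in saline VitA. Red blood cell markers were lower for 5 of 7 tested on both diets. The part of these markers in the differences was not tested.

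After saline, Hk2, Hilpda and Pdk4 had the smallest p-values between diets, none past the threshold. VitA against normal diet after saline called no member with edgeR, against a background of 0.0104%, while 3 members and 730 of the 19323 genes had an unadjusted p under 0.05 and DESeq2 called 1 member, Hk2, among 17 genes. Hk2 had 23.2, 19.5 and 27.2 CPM in saline VitA against 12.96, 12.96 and 13.3 CPM in saline normal (log2 0.83, SE 0.18, edgeR adjusted p = 0.383). Hilpda had 31.6, 31.4 and 30.6 CPM against 16.3, 14.7 and 16.2 CPM (log2 0.99, SE 0.26, adjusted p = 0.774), and Pdk4 81.2, 95.8 and 87.2 CPM against 54.6, 61.1 and 68.1 CPM (log2 0.52, adjusted p = 0.945). The diets did not overlap for these 3 genes, and over all 32 there were 4 higher and 2 lower without overlap, against 7.79% and 7.59% of all genes. The authors' deposited table of the diet comparison after saline lists 2063 genes, with unadjusted p up to 0.04998, and 6 members among them. The same 3 genes were listed there as higher with adjusted p of 5.96e-09 for Hilpda, 0.000567 for Hk2 and 0.00302 for Pdk4. How many of all genes passed an adjusted p of 0.05 there is not given here. With edgeR, Slc2a1 lay at -0.26 and Gapdh at 0.60, with adjusted p of 1. Adipocyte markers summed to 564 to 1052 CPM in saline VitA and 549 to 711 CPM in saline normal, ranges that overlap. The median log2 difference of the 9 tested was 2.75, and 0 passed. Their part in the values of these genes was not tested.

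One day after cyclophosphamide the vitamin A diet had the higher levels of the carrier genes Slc2a1 and Slc16a3, of Hif1a and of Hilpda, Egln3 and Ndrg1. The third carrier gene, Slc16a1, differed by 0.18 with overlapping diets (adjusted p = 0.83). VitA against normal diet at 1 day gave 8 members higher and none lower, 25% of the 32, against a background of 0.466% (0.238% higher and 0.228% lower). They were Slc2a1, Slc16a3, Pfkl, Pgk1, Hif1a, Hilpda, Egln3 and Ndrg1. The log2 change was above 0 for 26 of the 32, with a median of 0.47, and CPM ranges of the diets did not overlap for 19 members higher and 2 lower, against 7.18% and 8.63% of all genes. Besides the values given above, the differences were 1.52 for Hilpda (SE 0.26, adjusted p = 0.0147), 0.99 for Hif1a (SE 0.19, adjusted p = 0.0249), 0.69 for Egln3 (SE 0.12, adjusted p = 0.0194), 0.55 for Pfkl (adjusted p = 0.0319) and 0.93 for Ndrg1 (adjusted p = 0.0499). For Egln3 and Pfkl the CP 1 d normal libraries overlapped the saline normal ones. Ndrg1 stood at 94.0 to 145 CPM in CP 1 d VitA against 42.0 to 75.9 CPM in CP 1 d normal, and it had fallen below saline on the normal diet.

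**Figure D5:**
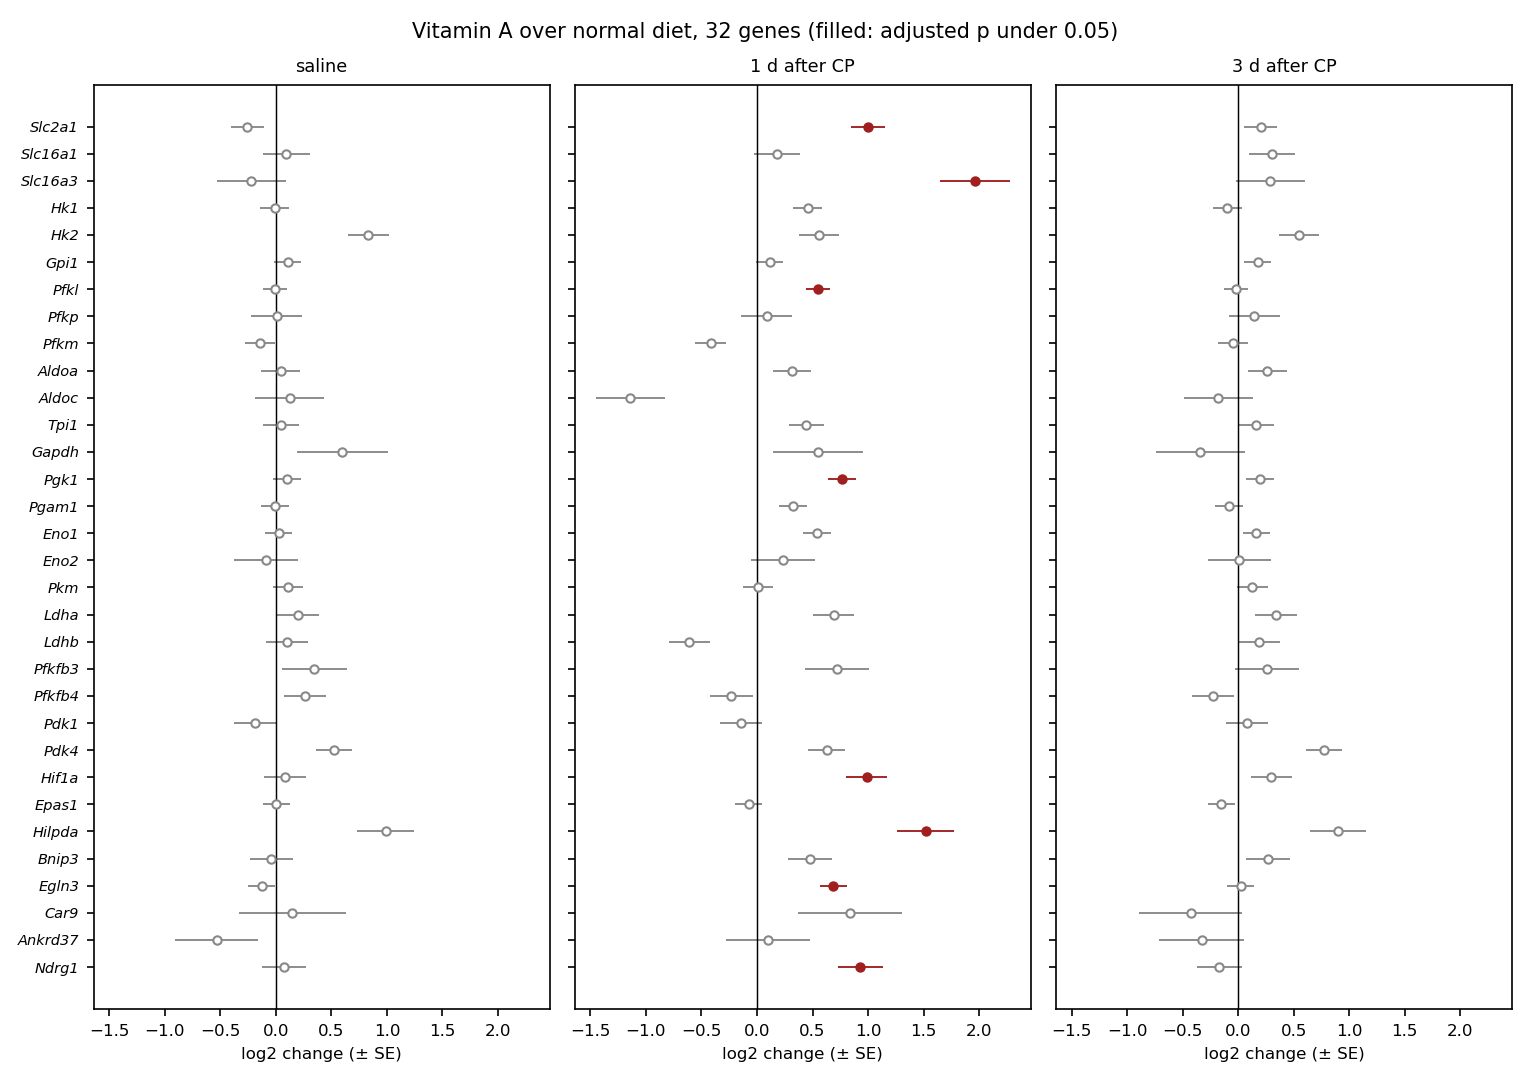
Log2 difference of the vitamin A over the normal diet for the 32 genes after saline, 1 day and 3 days after cyclophosphamide, as points with SE. Filled points passed an edgeR adjusted p of 0.05, which 8 genes did at 1 day, all to the right of 0, and none did after saline or at 3 days.

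These diet calls rest on few libraries. Without CP 1 d normal replicate 1, or without CP 1 d VitA replicate 3, no member passed, and the adjusted p of Slc2a1, Slc16a3, Pgk1 and Hilpda reached 0.105. Without CP 1 d VitA replicate 1, 9 members passed, among 305 genes in all, against 90 genes with every library. With only the libraries of these 2 groups in the fit, 2 genes passed in all and none of the 32. Replicate 1 of CP 1 d VitA had the lowest level of its group for 12 of the 14 genes that rose there, and it had the highest summed fibroblast and cell division markers of that group, at 3561 and 771 CPM. Adipocyte markers summed to 576 to 1708 CPM in CP 1 d VitA against 398 to 578 CPM in CP 1 d normal, neutrophil markers to 19.7 to 44.5 against 10.98 to 24.7 CPM, macrophage markers to 345 to 573 against 562 to 648 CPM, and cell division markers to 466 to 771 against 227 to 449 CPM. No single marker of these lists passed between diets. Their part in the diet difference was not tested. The authors' deposited table of that comparison lists 2219 genes, with unadjusted p up to 0.0499, so it is a selection on p. Of the members 22 were listed, 11 of them higher and 1, Ldhb, lower at an adjusted p under 0.05. How many of all genes passed that adjusted p is not given here, so these counts have no background share and nothing is read from them.

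Whether CP acted differently on the diets was tested as an interaction, and with edgeR no gene of the 19323 passed, a background of 0%. Of the 32 genes, 11 had an unadjusted p under 0.05 for the interaction of diet with CP at 1 day and 12 for that of diet with day after CP, against 1505 and 1732 of the 19323 genes. DESeq2 called 5 and 4 of the 32, among 120 and 87 genes in all. Slc2a1 had the lowest adjusted p in the first, with a difference of 1.26 between diets in its log2 change (SE 0.21, edgeR adjusted p = 0.093), followed by Slc16a3 at 2.18 (SE 0.44, adjusted p = 0.117) and Egln3 at 0.82 (SE 0.17, adjusted p = 0.117). Without CP 1 d VitA replicate 1, 3 members passed in the first interaction, among 39 genes in all. In the second, Egln3 stood at -0.66 (SE 0.17) and Slc16a3 at -1.67 (SE 0.44), both with an adjusted p of 0.309. DESeq2 called Slc2a1, Slc16a3, Pfkl, Pgk1 and Egln3 in the first and Slc16a3, Pfkl, Egln3 and Ndrg1 in the second.

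At 3 days no member differed between diets with edgeR, against a background of 0.00518%, while 3 members and 727 of the 19323 genes had an unadjusted p under 0.05 and DESeq2 called 1 member, Pdk4, among 11 genes. Without replicate 2 of CP 3 d VitA, 0 members passed here and 0 in the interaction of diet with day. Pdk4 had 78.6, 64.4 and 55.3 CPM in CP 3 d VitA against 42.6, 40.1 and 33.2 CPM in CP 3 d normal (log2 0.77, SE 0.16, adjusted p = 0.389). Hilpda had 25.9, 44.2 and 37.6 CPM against 26.5, 14.0 and 17.3 CPM (log2 0.90, adjusted p = 0.994), and Hk2 28.4, 24.2 and 41.7 CPM against 21.4, 18.8 and 24.2 CPM (log2 0.55, adjusted p = 0.994). The diets overlapped for Hilpda and Hk2 and not for Pdk4, whose vitamin A libraries lay above its normal-diet libraries at every stage. Ldha and Hif1a differed by 0.34 and 0.30, also with an adjusted p of 0.994.

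Other genes of the same pathways were taken from lists written out by function. In CP 1 d VitA over saline VitA, 4 of 25 tested other glycolysis and pyruvate genes were higher and 3 lower, and 7 of 29 other oxygen-sensing genes were higher and 1 lower, 28% and 27.6% of the lists against 19.3% of all genes. In CP 1 d normal over saline normal the counts were 3 higher and 2 lower, and 7 higher and 2 lower, 20% and 31% against 11.8% of all genes. Ldhd, a mitochondrial dehydrogenase of the other lactate isomer, rose by 2.47 on the vitamin A diet (adjusted p = 3.8e-06) and by 1.77 on the normal diet (adjusted p = 0.000194). Angptl4, an inhibitor of lipoprotein lipase, rose by 2.73 on the vitamin A diet (adjusted p = 9.48e-05), and Tfrc, the transferrin receptor gene, by 1.25 on the normal diet (adjusted p = 0.001). Stc2, a secreted glycoprotein gene, fell to 1.10 ± 0.683 CPM in CP 1 d VitA against 23.5 ± 4.47 CPM in saline VitA (log2 -4.39, adjusted p = 1.67e-05), and by 4.84 on the normal diet (adjusted p = 2.25e-05).

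By 3 days on the vitamin A diet 2 other glycolysis genes and 3 other oxygen-sensing genes were lower than at 1 day and 1, Stc2, was higher, 8% and 13.8% of the lists against 4.24% of all genes. Pfkfb1 fell by 1.80 (adjusted p = 0.00882), Ero1a, an oxidase of the endoplasmic reticulum, by 0.72 (adjusted p = 0.011) and Vegfa, the vascular growth factor gene, by 0.81 (adjusted p = 0.0197). On the normal diet 0 of 25 and 2 of 29 passed, against 1.44% of all genes: Stc2 was higher (log2 2.68, adjusted p = 0.0138) and Bhlhe40 lower (log2 -0.86, adjusted p = 0.0481). Against saline, CP 3 d VitA had 1 of 25 glycolysis genes higher, Ldhd (log2 1.39, adjusted p = 0.00204), and 3 of 29 oxygen-sensing genes higher and 2 lower, 4% and 17.2% against 5.98% of all genes. CP 3 d normal had 2 of 25 higher and 5 lower, Pdk2, a pyruvate dehydrogenase kinase gene, with the smallest p (log2 -0.58, adjusted p = 0.00303), and 5 of 29 higher and 3 lower, 28% and 27.6% against 10% of all genes.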

How the data were processed

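Total RNA libraries (NEBNext Ultra) of 18 bladders, 3 in each of 6 groups, were sequenced by the authors. The submitters' processing notes name HISAT2 2.0.5, featureCounts 1.5.0-p3, DESeq2 1.20.0 and GRCm39; the sources used here do not state their settings or whether counting used strand. The deposited table holds a whole-number count per gene and library, which was used for all tests, and the deposited FPKM, which equals count per length up to 1 factor per library and was used for levels between genes and for paralog shares. The authors' deposited tables of diet comparisons give log2 ratios and p-values, the ratios printed here as vitamin A over normal diet. Libraries held 19554132 to 34598952 counts. Rows with no gene name, 0.474 to 0.810% of counts, were left out.

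Counts were scaled by TMM, filtered with filterByExpr and fitted with edgeR 4.0.16 (robust quasi-likelihood, 1 mean per group, 12 residual degrees of freedom, R 4.3.3) in 11 contrasts, with Benjamini-Hochberg adjustment over all 19323 genes and a threshold of 0.05. SE was derived from the fold change and its F value. The fit was tested on simulated data. Alternatives were DESeq2 1.42.0, other scalings, no filter, all rows, only the groups compared, a replicate block, each library left out, and, chosen after seeing the data, rows of copies summed. Values in every sample were given for up to 5 genes per contrast with the smallest p and for genes whose role a result turns on, and other pathway genes for up to 4 per contrast, of which 1 gene is not reported here. The genes and lists were chosen with earlier results of these data known. An exact permutation test of 3 against 3 cannot go below p = 0.1.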

Additional observations from a re-analysis of the deposited data

How the results depend on the processing

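Of 1306 comparisons of 89 single-gene results with an alternative, 1105 kept direction and side of the threshold, 173 kept direction and lost the call, 27 gained one and 1 reversed. That one was Gapdh between diets after saline, at 0.60 from its own row and -0.04 with copies summed. Causes of the changes below were not tested. DESeq2 gave 4 members lower (3087 genes in all) in CP 1 d over saline on the normal diet. In CP 3 d over CP 1 d it gave 7 lower (664 genes) on the normal and 1 higher (1726 genes) on the vitamin A diet. In CP 3 d over saline on the vitamin A diet it gave 5 lower (1766 genes). Between diets DESeq2 gave 1 higher (17 genes) after saline, 12 higher and 1 lower (499 genes) at 1 day and 1 higher (11 genes) at 3 days, and 5 higher (120 genes) and 4 lower (87 genes) in the interactions with CP and with day. With only the groups compared, CP 1 d over saline on the normal diet gave 11 higher and 7 lower (4463 genes), CP 3 d over CP 1 d 5 lower (708 genes) on the normal and 0 lower (17 genes) on the vitamin A diet, and CP 3 d over saline 3710 genes on the normal and 1 higher (499 genes) on the vitamin A diet. In that setting the diet gave 2 higher (35 genes) after saline and 0 higher (2 genes) at 1 day, and its interaction with CP 1 higher (19 genes). Scaling by library total gave 0 lower (309 genes) in CP 3 d over CP 1 d on the normal diet. It gave 4 lower (1971 genes) in CP 3 d over saline on that diet, and 1 gene in the interaction with day. No filter gave 5 lower (1676 genes) in CP 3 d over saline on the normal diet, 7 genes for diet after saline and 0 at 3 days. It gave 1 higher (25 genes) in the interaction with CP and 9 genes in that with day. All rows, copies summed and the replicate block each gave 0 lower in CP 3 d over CP 1 d on the normal diet. In all, 280, 276 and 249 genes passed there.

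Leaving out 1 library gave, in CP 1 d over saline, 4 to 7 higher, 1 to 2 lower and 1239 to 1571 genes on the normal diet, and 12 to 14 higher, 3 to 5 lower and 2474 to 3926 genes on the vitamin A diet. In CP 3 d over CP 1 d it gave 0 to 1 lower and 70 to 257 genes on the normal diet, and 0 to 1 higher, 10 to 15 lower and 316 to 1335 genes on the vitamin A diet. In CP 3 d over saline it gave 0 to 2 higher, 2 to 5 lower and 961 to 1559 genes on the normal diet, and 1 to 2 higher, 2 to 4 lower and 671 to 1664 genes on the vitamin A diet. For diet it gave 0 to 2 genes after saline, 0 to 9 higher, 0 to 1 lower and 0 to 305 genes at 1 day, and 0 to 1 genes at 3 days. The interaction with CP gave 0 to 3 higher and 0 to 39 genes, and that with day 0 to 1 lower and 0 to 25 genes. Correlations of same-numbered deviations from group means ran from -0.120 to 0.197, and replicate numbers were not used as pairs in the main fit. With 3 libraries a group, these correlations cannot exclude that same-numbered samples belonged together. The replicate block gave 0 genes for diet at 3 days and ended the calls of Eno1 (adjusted p = 0.0532 and 0.0712), Bnip3 (0.0546) and Pfkl (0.0531 and 0.0525). With 3 libraries a group, low-count genes such as Car9 and Ankrd37 are the least precise.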
